A study of Mus musculus with 12 samples.

Results

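The genes described here are 10 genes that mark basophils and mast cells: Fcer1a, Ms4a2, Prss34, Mcpt8, Cpa3, Hdc, Il4, Gata2, Kit and Cd200r3. They were taken by symbol from a count table of 56832 gene entries, and all 10 were found. RNA sequencing had been done on macrophages sorted from mouse bone marrow, gated as positive for CD45 and F4/80 and negative for Ly6g and Ly6c. The leukemic group held 6 libraries, 3 from females and 3 from males, made at day 11, at a late stage of disease, from mice transplanted with cells of a model named bcCML, a leukemia modelled on the blast crisis of chronic myeloid leukemia. The non-leukemic group held 6 libraries, 3 from females and 3 from males, and the series' design calls these mice healthy. Strain, age and any transplant procedure in the non-leukemic mice are not given in the sources used here, and the labelled gate names no marker that separates leukemic cells from host macrophages. No label says that replicates came from different mice, and each p below therefore reflects spread among libraries, which may be technical.

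Basophils and mast cells are the granulocytes that carry the high-affinity receptor for immunoglobulin E (IgE). When antigen cross-links IgE on that receptor, the cells release stored histamine and proteases from their granules and make cytokines such as IL-4. Basophils mature in the bone marrow under interleukin 3 and enter the blood, while mast cells leave the marrow as progenitors and mature in tissues under the growth factor that binds the receptor Kit. GATA2 is a transcription factor that both lineages need.

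Total counts were 22437689 to 30014855 in the leukemic libraries and 16911827 to 26611831 in the non-leukemic libraries. Levels are given as CPM, counts scaled to the library total, and a count of 0 allows up to 3 counts, which was 0.1 to 0.134 CPM in leukemic and 0.113 to 0.177 CPM in non-leukemic libraries. In female leukemic replicate 1 only 17891 genes had a count, where the remaining 11 libraries had 19521 to 21247. Male non-leukemic replicate 3 had 258.1 CPM of Adgre1, the gene of F4/80, and the other non-leukemic libraries had 75.85 to 112.2 CPM. Both genes of the positive gate were present in every library, with Adgre1 at 28.35 to 60.59 CPM in leukemic and 75.85 to 258.1 CPM in non-leukemic libraries. Ptprc, the gene of CD45, was at 258.6 to 811.2 CPM in leukemic and 304.7 to 425 CPM in non-leukemic libraries. Of the genes gated against, Ly6g was at 4.756 to 24.22 CPM in leukemic and 31.13 to 77.87 CPM in non-leukemic libraries, and Ly6c2 at 121 to 409.9 CPM in leukemic and 173.3 to 449.7 CPM in non-leukemic libraries. Ly6c1 was at most 1.546 CPM in any leukemic and 0.5587 CPM in any non-leukemic library. The 11 macrophage markers, such as Csf1r, Cd68 and C1qa, took 0.0497% to 0.116% of counts in leukemic and 0.122% to 0.455% in non-leukemic libraries, and none was at 0. In every one of the 12 libraries the 10 basophil and mast cell genes took a larger share than these 11 macrophage markers. Without Prss34 this did not hold in every library. The rest of the 10 genes took at most 0.345% in any non-leukemic library, and the macrophage markers took 0.455% in male non-leukemic replicate 3. A share of counts is not a share of cells.

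Together the 10 genes made up 0.9636%, 1.057% and 1.276% of all counts in the male leukemic libraries and 1.508%, 3.462% and 1.558% in the female leukemic libraries. They made up 0.392%, 0.5669% and 0.4947% in the male non-leukemic libraries and 0.5115%, 0.8321% and 0.4701% in the female non-leukemic libraries. The groups did not overlap, and the mean share was 1.637% ± 0.9245 in leukemic libraries and 0.5445% ± 0.152 in non-leukemic libraries (SD, 6 libraries each), a ratio of 3.01. Prss34 alone supplied 50.3% to 62.8% of these counts. Without it the other 9 genes took 0.373% to 1.54% in leukemic and 0.167% to 0.345% in non-leukemic libraries. In bulk samples, more cells of a type and more of their RNA per cell cannot be told apart.

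Of the 10 genes, 7 rose in leukemic libraries and 0 fell, by the quasi-likelihood test of edgeR with sex as a term and an adjusted p under 0.05 over the 15758 genes tested. Over all of those genes, 8.71% rose and 9.2% fell. The genes that rose were the IgE receptor chains Fcer1a and Ms4a2, the granule enzymes Prss34, Mcpt8 and Cpa3, the transcription factor Gata2 and the receptor Cd200r3, while Hdc, Il4 and Kit did not pass. The median log2 fold change was 1.40 over the 10 genes and -0.009 over all genes tested. For Prss34, Cpa3, Ms4a2, Gata2 and Cd200r3 every leukemic library was above every non-leukemic library, a pattern held by 5.05% of all genes tested. None of the 10 showed the reverse, which 3.63% of all genes did. The low-count filter kept all 10 genes, whose lowest level in any library was 1.13 CPM against a filter threshold of 0.402 CPM.

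**Figure D1:**
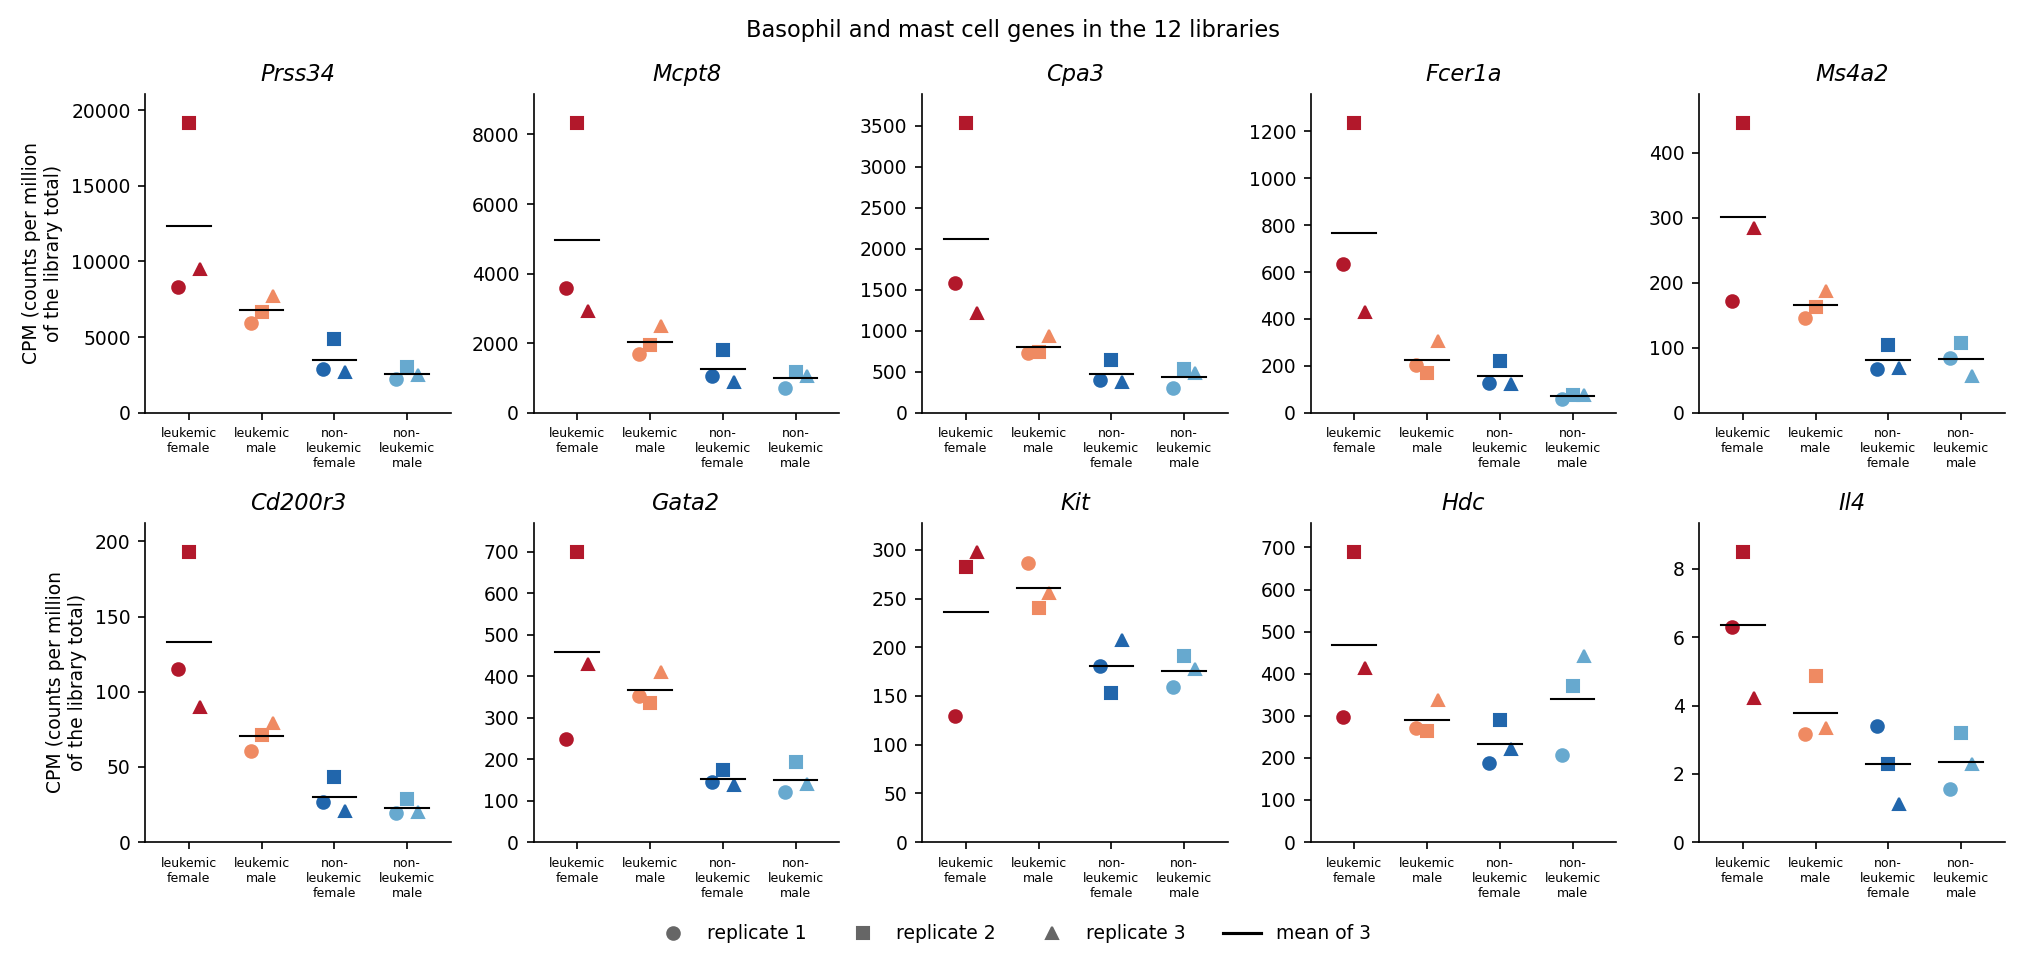
CPM of each of the 10 genes (vertical axis, from 0) in the 3 libraries of each sex and condition, with leukemic groups in reds and non-leukemic groups in blues, 1 symbol per replicate number and a line at the mean of 3. Female leukemic replicate 2 was the highest leukemic library for 9 of the 10 genes, and Kit was lowest in female leukemic replicate 1, at 129 CPM.

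Promoter windows were searched for the short core that GATA factors, of which GATA2 is one, read, GATAA on one strand and TTATC on the other, and the windows that hold it are shown. The windows were the 250 bases before the annotated start, matched by symbol in a RefSeq table of the mouse build GRCm38.p6. All 10 genes had a window, with 13 windows in all. The core was found in the windows of 5 genes, all of which rose, and in none of the windows of Mcpt8, Gata2, Hdc, Il4 and Kit, of which Mcpt8 and Gata2 rose. By window, 5 of the 13 held the core, and 22.5% of all 32536 windows of the table did. The 5 windows are printed below 5′ to 3′ along the strand of the gene, with the core in capitals. They are chr1:173227230-173227479 on the minus strand for Fcer1a, chr19:11623720-11623969 on the minus strand for Ms4a2, chr17:25298144-25298393 on the plus strand for Prss34, chr3:20242182-20242431 on the minus strand for Cpa3 and chr16:44943428-44943677 on the plus strand for Cd200r3. Each lies just upstream of the first exon and overlaps no annotated exon.
Fcer1a: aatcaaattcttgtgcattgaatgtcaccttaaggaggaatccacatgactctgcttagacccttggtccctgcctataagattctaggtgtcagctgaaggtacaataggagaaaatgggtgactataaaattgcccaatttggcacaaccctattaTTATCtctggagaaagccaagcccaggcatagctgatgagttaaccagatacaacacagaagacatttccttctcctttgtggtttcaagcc
Ms4a2: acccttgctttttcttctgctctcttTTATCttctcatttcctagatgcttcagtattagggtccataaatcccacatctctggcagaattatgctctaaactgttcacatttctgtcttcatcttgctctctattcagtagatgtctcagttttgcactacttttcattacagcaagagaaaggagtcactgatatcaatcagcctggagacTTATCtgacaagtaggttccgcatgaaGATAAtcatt
Prss34: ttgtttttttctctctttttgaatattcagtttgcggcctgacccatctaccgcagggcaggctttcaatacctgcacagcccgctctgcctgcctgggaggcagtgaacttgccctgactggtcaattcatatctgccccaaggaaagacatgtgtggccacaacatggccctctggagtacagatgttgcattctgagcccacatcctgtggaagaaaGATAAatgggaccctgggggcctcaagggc
Cpa3: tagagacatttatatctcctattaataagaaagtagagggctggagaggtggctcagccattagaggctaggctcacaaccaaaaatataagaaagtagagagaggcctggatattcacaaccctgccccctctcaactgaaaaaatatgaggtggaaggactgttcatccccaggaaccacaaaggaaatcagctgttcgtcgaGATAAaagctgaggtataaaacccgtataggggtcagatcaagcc
Cd200r3: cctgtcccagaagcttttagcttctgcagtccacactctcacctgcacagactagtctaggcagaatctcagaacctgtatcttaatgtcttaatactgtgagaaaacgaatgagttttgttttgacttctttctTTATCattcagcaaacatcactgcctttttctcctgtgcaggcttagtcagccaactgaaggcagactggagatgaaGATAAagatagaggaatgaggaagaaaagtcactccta
Counted from the start, the core began 92 bases upstream in Fcer1a, 30 bases in Prss34 and 45 bases in Cpa3. Ms4a2 held 3 cores, at 224, 37 and 10 bases, and Cd200r3 held 2, at 115 and 38 bases. The E-box CANNTG, a core read by basic helix-loop-helix factors, was in 8 of the 13 windows and in 66.2% of all windows. A match describes the letters of a window and is not a measured binding site.

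The high-affinity IgE receptor is built from an alpha chain that binds IgE, encoded by Fcer1a, a signalling beta chain, encoded by Ms4a2, and a shared gamma chain, encoded by Fcer1g. Fcer1a had 634.3, 1238 and 430.1 CPM in female leukemic and 204.3, 169.1 and 304.4 CPM in male leukemic libraries, against 125.7, 221.5 and 121 CPM in female non-leukemic and 58.32, 77.4 and 77.53 CPM in male non-leukemic libraries. Within each sex all leukemic libraries were above all non-leukemic libraries, while across the sexes male leukemic replicates 1 and 2 lay below female non-leukemic replicate 2. Fcer1a rose by 1.90 ± 0.28 log2 units (± SE throughout; adjusted p = 0.000538), the largest log2 fold change of the 10 genes. Ms4a2 had 172.8, 446.9 and 284.3 CPM in female leukemic and 145.9, 162.2 and 187.8 CPM in male leukemic libraries, against 68.14, 103.9 and 69.67 CPM in female non-leukemic and 84.64, 107.8 and 56.34 CPM in male non-leukemic libraries. The groups did not overlap, and Ms4a2 rose by 1.37 ± 0.25 (adjusted p = 0.00226). Fcer1g, which macrophages and other myeloid cells also use, averaged 441.8 CPM in leukemic and 512.8 CPM in non-leukemic libraries and did not pass (log2 fold change -0.31 ± 0.38, adjusted p = 0.647).

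The granule enzymes were the most abundant of the 10 genes. Prss34, which encodes a tryptase-like serine protease of mouse basophils, had 8310, 19180 and 9472 CPM in female leukemic and 5902, 6637 and 7742 CPM in male leukemic libraries, against 2911, 4874 and 2673 CPM in female non-leukemic and 2249, 2997 and 2491 CPM in male non-leukemic libraries. The groups did not overlap, and replicate 2 was the highest female library in both conditions. The log2 fold change of Prss34 was 1.52 ± 0.23 (adjusted p = 0.000587). Mcpt8, which encodes mast cell protease 8 and despite its name is used as a marker of mouse basophils, had 3584, 8342 and 2935 CPM in female leukemic and 1688, 1948 and 2503 CPM in male leukemic libraries, against 1064, 1815 and 875.6 CPM in female non-leukemic and 724, 1173 and 1060 CPM in male non-leukemic libraries. Male leukemic replicate 1 lay below female non-leukemic replicate 2, so the groups overlapped across the sexes and not within them, and Mcpt8 rose by 1.43 ± 0.30 (adjusted p = 0.00594). Cpa3, the carboxypeptidase stored beside these proteases in mast cells and basophils, had 1579, 3539 and 1221 CPM in female leukemic and 723, 737.3 and 935 CPM in male leukemic libraries, against 402.6, 645.3 and 375 CPM in female non-leukemic and 299.1, 528.1 and 481.9 CPM in male non-leukemic libraries. The groups did not overlap, and the log2 fold change of Cpa3 was 1.42 ± 0.33 (adjusted p = 0.00912). Without female leukemic replicate 2, the highest library for all 3 enzymes, the log2 fold changes were 1.34 for Prss34, 1.17 for Mcpt8 and 1.16 for Cpa3, with the highest of the 3 adjusted p-values at 0.0077. Over all 20 alternatives the highest adjusted p was 0.00207 for Prss34, 0.0186 for Mcpt8 and 0.0279 for Cpa3.

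The genes for released mediators, Hdc and Il4, did not pass. Hdc, the enzyme that makes histamine, had 298.3, 689.6 and 413.3 CPM in female leukemic and 270.5, 264.4 and 337.7 CPM in male leukemic libraries, against 187.9, 289 and 220.6 CPM in female non-leukemic and 205.8, 369.9 and 442.6 CPM in male non-leukemic libraries. The female groups did not overlap, with leukemic libraries higher, while the male groups overlapped, and the log2 fold change over both sexes was 0.30 ± 0.29 (adjusted p = 0.551). Il4 had 6.297, 8.502 and 4.234 CPM in female leukemic and 3.151, 4.868 and 3.355 CPM in male leukemic libraries, against 3.397, 2.296 and 1.127 CPM in female non-leukemic and 1.541, 3.193 and 2.278 CPM in male non-leukemic libraries. Il4 was the least abundant of the 10 genes, its groups overlapped, and its log2 fold change was 1.02 ± 0.35 (adjusted p = 0.064). It passed without male non-leukemic replicate 2 (adjusted p = 0.0464), with column totals in place of TMM scaling (0.0438), with DESeq2 (0.0203) and with no sex term (0.0495), and its adjusted p ran over 0.0203 to 0.137 in the 19 alternatives that tested it.

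Gata2 had 248.1, 699.7 and 429.5 CPM in female leukemic and 351.6, 335.2 and 410.3 CPM in male leukemic libraries, against 145.1, 173.7 and 136.7 CPM in female non-leukemic and 119.5, 192.8 and 138.9 CPM in male non-leukemic libraries. The groups did not overlap in either sex or across them, and Gata2 rose by 1.35 ± 0.20 (adjusted p = 0.000531). Kit, the receptor for stem cell factor, is also carried by stem and progenitor cells. It had 129, 282.7 and 298 CPM in female leukemic and 286.7, 240.6 and 255.3 CPM in male leukemic libraries, against 180.5, 152.6 and 207.7 CPM in female non-leukemic and 159.2, 191.3 and 177.5 CPM in male non-leukemic libraries. Every leukemic library except female leukemic replicate 1 was above every non-leukemic library, and that 1 library was below all of them. The log2 fold change of Kit was 0.39 ± 0.15 and did not pass (adjusted p = 0.104). Without female leukemic replicate 1 it was 0.53 and passed (adjusted p = 0.00285), and without that library and male non-leukemic replicate 3 it was 0.57 (adjusted p = 0.00129). Over all 20 alternatives the adjusted p of Kit ran over 0.00129 to 0.214.

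Cd200r3 encodes an activating member of the CD200 receptor family that is carried by mouse basophils and mast cells. It had 115.3, 193.1 and 90.03 CPM in female leukemic and 60.67, 71.26 and 79.43 CPM in male leukemic libraries, against 26.75, 43.38 and 20.78 CPM in female non-leukemic and 19.08, 28.74 and 19.73 CPM in male non-leukemic libraries. The groups did not overlap, and Cd200r3 rose by 1.81 ± 0.23 (adjusted p = 2e-04), the lowest adjusted p of the 10 genes. Close relatives of Cd200r3 and of the granule proteases lie in gene families with similar sequence, and how reads that match several genes were counted is not given in the sources used here. No other annotated gene overlapped the exons of any of the 10 genes in the GRCm38 annotation used for gene lengths.

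Levels were compared between genes as CPM per kilobase of merged exon length. In leukemic libraries the order of the mean levels was Prss34 (7820 CPM per kilobase), Mcpt8 (3510), Cpa3 (960), Fcer1a (498), Ms4a2 (82.9), Gata2 (76.4), Hdc (59.3), Kit (27.9), Cd200r3 (17) and Il4 (4.13). In non-leukemic libraries the mean levels were 2490 CPM per kilobase for Prss34, 1120 for Mcpt8, 300 for Cpa3, 114 for Fcer1a, 44.8 for Hdc, 29.1 for Ms4a2, 28 for Gata2, 20 for Kit, 4.41 for Cd200r3 and 1.88 for Il4. The top 4 genes and the last 3 kept their places in both groups, while Hdc stood below Ms4a2 and Gata2 in leukemic libraries and above them in non-leukemic libraries. In leukemic libraries neighbours among the top 4 overlapped in range, as did Ms4a2, Gata2 and Hdc, and Kit with Cd200r3. In non-leukemic libraries Cpa3 overlapped Fcer1a, Fcer1a overlapped Hdc, and Hdc, Ms4a2, Gata2 and Kit each overlapped the next, while the other neighbours were separate.

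Cpa3 kept a near-fixed proportion to Mcpt8 across the libraries, and the proportion of Prss34 varied more. For each Mcpt8 count, Cpa3 had 0.41 ± 0.0277 counts in leukemic and 0.413 ± 0.0397 counts in non-leukemic libraries (SD, 6 libraries each), and the highest library was 1.28 times the lowest. Prss34 had 2.97 ± 0.533 counts per Mcpt8 count in leukemic and 2.75 ± 0.29 in non-leukemic libraries, a span of 1.52 times. These spans were narrow beside that of Mcpt8 itself, whose level ran over 1688 to 8342 CPM in leukemic and 724 to 1815 CPM in non-leukemic libraries. Gata2 had 0.141 ± 0.0538 counts in leukemic and 0.141 ± 0.0266 in non-leukemic libraries, and Ms4a2 had 0.0739 ± 0.0192 in leukemic and 0.0771 ± 0.0243 in non-leukemic libraries. Cd200r3 had 0.0317 ± 0.00482 counts in leukemic and 0.0237 ± 0.00267 in non-leukemic libraries, and only female leukemic replicate 2, at 0.0231, fell within the range of the non-leukemic libraries. Hdc had 0.123 ± 0.0323 counts per Mcpt8 count in leukemic and 0.268 ± 0.0953 in non-leukemic libraries, with a single overlap, between male leukemic replicate 1 at 0.16 and female non-leukemic replicate 2 at 0.159. Kit had 0.0945 ± 0.0524 counts in leukemic and 0.174 ± 0.0536 in non-leukemic libraries, the widest span of the 9 ratios at 7 times. Fcer1a had 0.134 ± 0.0309 in leukemic and 0.0997 ± 0.0301 in non-leukemic libraries, and Il4 had 0.00165 ± 0.000513 in leukemic and 0.00212 ± 0.000767 in non-leukemic libraries. All 9 ratios overlapped between the groups, and none was tested.

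**Figure D2:**
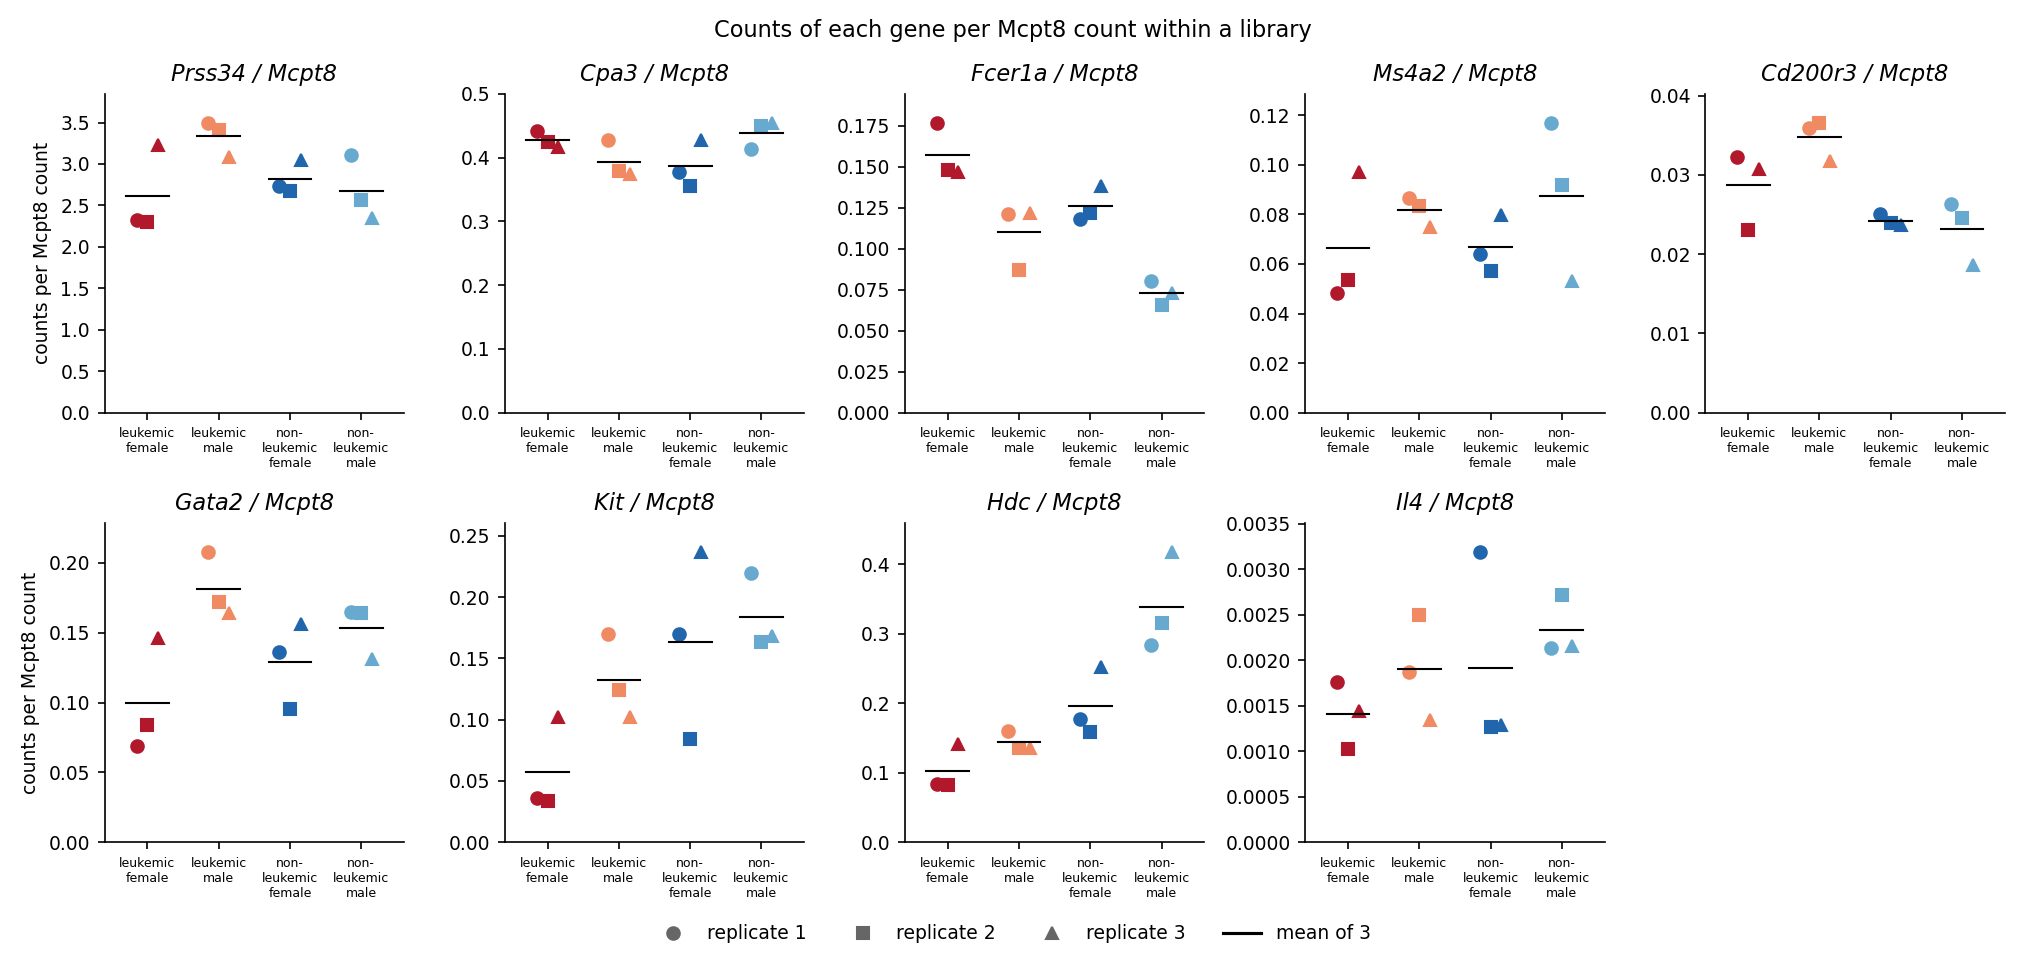
Counts of each of 9 genes per Mcpt8 count in the same library (vertical axes, from 0), for the 3 libraries of each sex and condition, with a line at the mean of 3. Cpa3 stayed at 0.355 to 0.455 counts per Mcpt8 count in all 12 libraries, while Kit ran over 0.0339 to 0.17 in leukemic and 0.084 to 0.237 in non-leukemic libraries.

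The genes whose pattern over the 12 libraries was most like that of Mcpt8 were found by the root mean square difference of log2 CPM, centred for each gene. Of the 15757 other genes tested, the first 3 were themselves among the 10 genes: Cpa3 at 0.112, Prss34 at 0.208 and Cd200r3 at 0.279. Csrp3 followed at 0.325 and rose by 1.35 on the log2 scale (adjusted p = 0.00211), with 29.13 ± 13.29 CPM in leukemic and 10.33 ± 2.849 CPM in non-leukemic libraries. An entry listed only as ENSMUSG00000120454 came next at 0.356 and rose by 0.93 (adjusted p = 0.0176). Ms4a2 ranked 6, Fcer1a 11, Gata2 17 and Il4 24, whereas Hdc ranked 321 and Kit 2439. The genes most like Kit were Copa at 0.089, Wbp1l at 0.114, Dnajb11 at 0.119, Elp3 at 0.133 and Lrrc58 at 0.134, none of which passed the test (adjusted p of 0.0909 to 0.19). The points share library depth and composition, and the likeness is a description.

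Within females 7 of the 10 genes rose and 0 fell, the same 7 as over both sexes, where 3.84% of all genes tested rose and 4.59% fell. Within males 4 rose, Fcer1a, Prss34, Gata2 and Cd200r3, and 0 fell, where 3.34% of all genes rose and 4.04% fell. The log2 fold changes in females were 2.28 ± 0.38 for Fcer1a, 2.13 ± 0.37 for Cpa3, 2.12 ± 0.32 for Cd200r3, 1.96 ± 0.39 for Mcpt8, 1.87 ± 0.30 for Ms4a2, 1.80 ± 0.31 for Prss34 and 1.56 ± 0.28 for Gata2. In males the log2 fold changes were 1.51 ± 0.37 for Fcer1a, 1.50 ± 0.31 for Cd200r3, 1.24 ± 0.31 for Prss34 and 1.13 ± 0.27 for Gata2, all past the test. Mcpt8 at 0.90 ± 0.38 (adjusted p = 0.189), Ms4a2 at 0.86 ± 0.29 (0.102) and Cpa3 at 0.72 ± 0.36 (0.277) did not pass in males. Hdc had a log2 fold change of 0.98 ± 0.31 in females (adjusted p = 0.0782) and -0.39 ± 0.31 in males (0.536).

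The test of the difference itself, the female effect minus the male effect, gave no gene past the threshold: 0% of all genes tested were called in either direction, and 925 of them, or 5.87%, had an unadjusted p under 0.05 by edgeR. For the 10 genes the differences on the log2 scale ran over -0.04 for Kit to 1.42 ± 0.50 for Cpa3, with 9 of 10 larger in females. Of the 10 genes, Hdc (0.00932), Cpa3 (0.016) and Ms4a2 (0.0285) had an unadjusted p under 0.05 by edgeR, each with an adjusted p of 0.819. Hdc, the lowest, had a difference of 1.37 ± 0.44. The effect in females was thus not shown to differ from that in males for any of the 10 genes. The male count of 4 moved when single libraries were left out: it was 0 without male leukemic replicate 3 or male non-leukemic replicate 1, 1 without male leukemic replicate 1, and 2 without male leukemic replicate 2, male non-leukemic replicate 2 or male non-leukemic replicate 3. It was 5 without female leukemic replicate 1. The female count of 7 was 6 without female non-leukemic replicate 1, where Mcpt8 did not pass, 8 without male non-leukemic replicate 1, where Hdc passed, and 9 without female leukemic replicate 1, where Hdc and Kit passed.

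**Figure D3:**
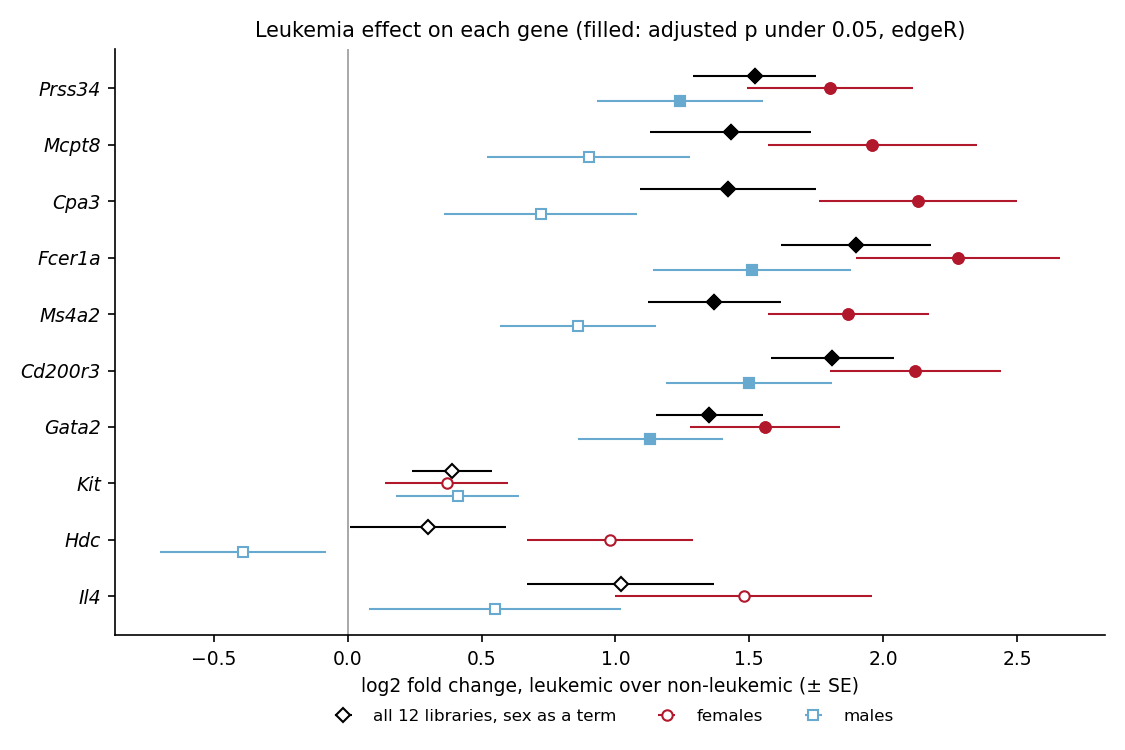
Log2 fold change of leukemic over non-leukemic libraries for each of the 10 genes (horizontal axis), with bars of ± SE, for all 12 libraries with sex as a term (diamonds), females (circles) and males (squares), and filled symbols where the adjusted p of edgeR was under 0.05. The female estimates lie right of the male estimates for all genes but Kit, and for Hdc they lie on either side of 0.

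Genes of the same cells beyond the 10 were described by lists, for which the counts below are read against the 8.71% of all genes that rose and the 9.2% that fell. Of 14 other basophil genes tested, 11 rose and 1 fell (list median 1.52 on the log2 scale). Csf1, the macrophage growth factor, averaged 91.25 CPM in leukemic and 26.57 CPM in non-leukemic libraries and rose by 1.68 ± 0.22 (adjusted p = 2e-04). The chemokine Ccl3 rose by 2.19 ± 0.28 (0.000202), the early activation antigen Cd69 by 2.20 ± 0.31 (0.000405) and Cyp11a1, the first enzyme of steroid synthesis, by 1.88 ± 0.25 (0.000266). Ccl3, Csf1 and Cd69 are also made by macrophages and lymphocytes, so the list is not restricted to basophils. Enpp3, which encodes the basophil and mast cell surface enzyme CD203c, was the 1 gene that fell. It had 0, 16 and 4 counts in female leukemic and 17, 11 and 11 counts in male leukemic libraries, against 211, 164 and 191 counts in female non-leukemic and 198, 76 and 33 counts in male non-leukemic libraries. All leukemic libraries were below all non-leukemic libraries, and the log2 fold change was -4.25 ± 0.68 (adjusted p = 0.000916).

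**Figure D4:**
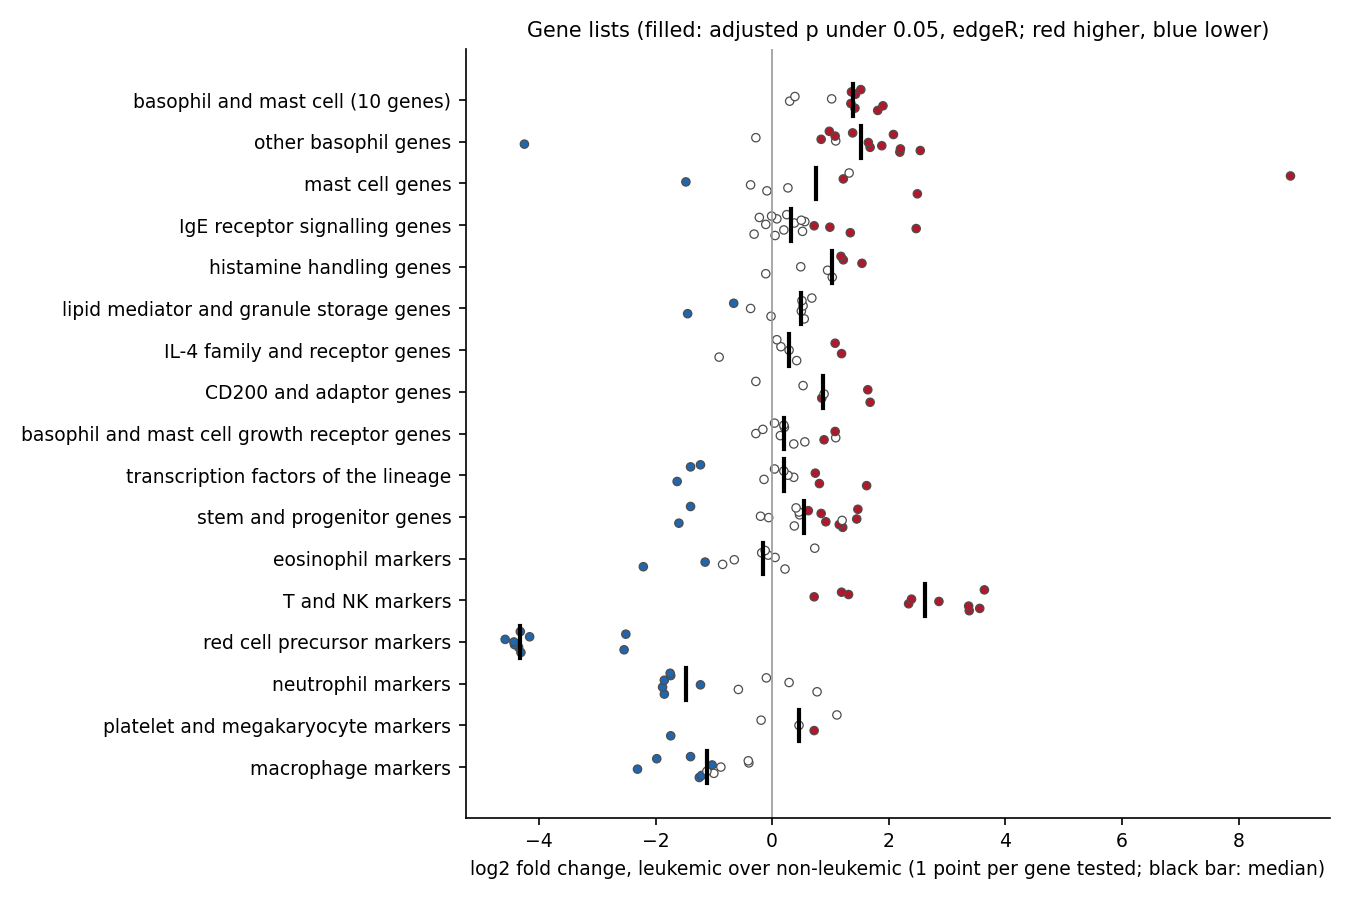
Log2 fold change of leukemic over non-leukemic libraries (horizontal axis) for every tested gene of the 10 basophil and mast cell genes (top row) and of 16 other lists, with a bar at each list's median and filled points where the adjusted p of edgeR was under 0.05. The median was 1.52 for the other basophil genes, 2.63 for T and NK markers and -4.32 for red cell precursor markers.

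The genes that set mature mast cells apart were mostly at or near 0. The mast cell protease gene Mcpt9 and the mast cell receptor genes Mrgprb1 and Mrgprb2 had no count in any library, and Mcpt1, Mcpt4, Tpsab1 and Tpsg1 had none in any non-leukemic library. In leukemic libraries Mcpt1 had 36 counts in all, Tpsab1 28, Tpsg1 28 and Mcpt4 6, and those of Tpsab1, Tpsg1 and Mcpt4 each came from 1 library. The tryptase Tpsb2 had 61 counts over the leukemic and 16 over the non-leukemic libraries and did not pass. Of 8 mast cell genes tested, 3 rose and 1 fell (list median 0.74 on the log2 scale). The chymase Cma1 rose by 2.49 ± 0.54 (adjusted p = 0.00648), with 1.244 to 13.73 CPM in leukemic and 0.1183 to 1.541 CPM in non-leukemic libraries. Slc18a2, which loads histamine and serotonin into vesicles, rose by 1.22 ± 0.19 (adjusted p = 0.000846), with 58.2 to 127.7 CPM in leukemic and 25.17 to 46.71 CPM in non-leukemic libraries. Rasgrp4, a Ras activator of mast cells and other myeloid cells, fell by 1.48 ± 0.30 (adjusted p = 0.00448).

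Tph1, the enzyme that begins serotonin synthesis, had 2206, 51 and 815 counts in female leukemic and 748, 399 and 2102 counts in male leukemic libraries, against 0, 10 and 0 counts in female non-leukemic and 0 counts in each male non-leukemic library. It rose (adjusted p = 0.000232), and all leukemic libraries were above all non-leukemic libraries. Without Tph1, a choice made after its values were seen, the mast cell list took 0.0125% to 0.0265% of counts in leukemic and 0.0139% to 0.0167% in non-leukemic libraries, and the groups overlapped. What remained was mostly Slc18a2, given above, and Ndst2, which averaged 76.39 CPM in leukemic and 92.67 CPM in non-leukemic libraries. Ndst2 did not pass (-0.37 ± 0.19, adjusted p = 0.222). The overlap does not hold for each gene, since Slc18a2 rose with no overlap between the groups. Cma1 rose as well, but its groups overlapped. The lowest leukemic library of Tph1 was female leukemic replicate 2, the library in which 9 of the 10 basophil and mast cell genes were highest.

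Downstream of the IgE receptor, 4 of 16 signalling genes rose and 0 fell (list median 0.32 on the log2 scale). The adaptors Lat and Lat2 and the kinase Fyn rose by 2.47 ± 0.13 (adjusted p = 4.08e-07), 0.99 ± 0.16 (0.00087) and 1.34 ± 0.18 (0.000259), and the adaptor Lcp2 by 0.72 ± 0.20 (0.0245). Lat averaged 84.19 CPM in leukemic and 14.34 CPM in non-leukemic libraries, and it is also the adaptor of the T cell receptor. The 10 T and NK cell markers, such as Trac (3.64 ± 0.36, adjusted p = 3.43e-05), Cd8a (2.86 ± 0.28, 3.1e-05), Cd3g (3.37 ± 0.34, 3.67e-05) and Cd3d (3.38 ± 0.36, 5e-05), all rose in the same libraries, at 0.108% to 0.228% of counts in leukemic and 0.0265% to 0.0537% in non-leukemic libraries, with no marker at 0 and a list median of 2.63 on the log2 scale. Their part in the change of Lat, Fyn and Lcp2 was not tested. The kinases Lyn and Syk, with log2 fold changes of -0.11 ± 0.24 and -0.01 ± 0.20, did not pass.

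Among 7 histamine handling genes tested, 3 rose and 0 fell (list median 1.03 on the log2 scale). They were Slc18a2, given above, the transporter Slc22a3 (1.18 ± 0.16, adjusted p = 0.000294) and the histamine receptor Hrh4 (1.54 ± 0.48, adjusted p = 0.0421). The groups of Hrh4 overlapped, with 0.9329 to 15.21 CPM in leukemic and 0.9455 to 2.945 CPM in non-leukemic libraries. Female leukemic replicate 2 held 406 of its 877 leukemic counts, and female leukemic replicate 1 lay below every non-leukemic library. Over the 15 alternatives run for this list, 2 to 3 genes rose. The receptor gene Hrh3 had no count, and Hrh2 had 9.229 to 20.14 CPM in leukemic and 4.577 to 20.41 CPM in non-leukemic libraries and did not pass. Of 9 lipid mediator and granule storage genes, 0 rose and 2 fell (list median 0.50 on the log2 scale). Hpgds, which makes prostaglandin D2, fell by 1.45 ± 0.30 (adjusted p = 0.00499) and the cyclooxygenase Ptgs1 fell by 0.66 ± 0.20 (0.0395). The granule proteoglycan Srgn (0.68 ± 0.24, adjusted p = 0.0705) and the phospholipase Pla2g4a (0.53 ± 0.19, 0.0747) did not pass. Only 1 gene fell without female leukemic replicate 3, any male leukemic library, female non-leukemic replicate 2 or 3, or male non-leukemic replicate 1 or 2, and 1 rose without female leukemic replicate 1, female non-leukemic replicate 3 or male non-leukemic replicate 3.

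Il4's relatives and the machinery of its receptor changed in part. Il9 and Il31 had no count in any library. Il5 had 4 counts over the leukemic and 0 over the non-leukemic libraries, and Il13 had 13 over the leukemic and 3 over the non-leukemic libraries. Of the 7 genes of this list that were tested, 2 rose and 0 fell (list median 0.29 on the log2 scale). The common gamma chain Il2rg rose by 1.19 ± 0.18 (adjusted p = 0.000714) and its kinase Jak3 by 1.08 ± 0.22 (0.00449), while Il13ra1 (-0.91 ± 0.36, adjusted p = 0.0995) and Gata3 (0.42 ± 0.23, 0.239) did not pass. Il2rg and Jak3 are also used by T and NK cells, whose markers rose in the same libraries.

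The relatives of Cd200r3, the ligand gene Cd200 and the adaptor genes Tyrobp and Hcst gave 3 genes that rose and 0 that fell of 6 (list median 0.87 on the log2 scale). The activating receptor Cd200r4 rose by 1.64 ± 0.40 (adjusted p = 0.013), the inhibitory receptor Cd200r1 by 0.85 ± 0.21 (0.0128) and the ligand Cd200 by 1.68 ± 0.35 (0.00511). Cd200 averaged 20.77 CPM in leukemic and 6.221 CPM in non-leukemic libraries. The adaptor Hcst (0.53 ± 0.25, adjusted p = 0.166) did not pass.

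Of 11 growth receptor and STAT genes, 2 rose and 0 fell (list median 0.21 on the log2 scale). Il3ra, the specific chain of the interleukin 3 receptor, rose by 1.08 ± 0.21 (adjusted p = 0.00308), with 23.98 to 48.84 CPM in leukemic and 9.198 to 15.99 CPM in non-leukemic libraries. Csf2rb2, the interleukin 3 specific beta chain of mice, rose by 0.89 ± 0.22 (adjusted p = 0.0148), and neither gene overlapped between the groups. Il18r1 (1.09 ± 0.39, adjusted p = 0.0715) and Crlf2, a chain of the thymic stromal lymphopoietin receptor (0.37 ± 0.18, 0.195), did not pass. The groups of Il18r1 also did not overlap, with 4.59 to 8.633 CPM in leukemic and 0.957 to 4.435 CPM in non-leukemic libraries. Those of Crlf2 overlapped.

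Of 11 lineage transcription factors other than Gata2, 3 rose and 3 fell (list median 0.20 on the log2 scale). The factors that fell were Gata1, by 1.63 ± 0.23 (adjusted p = 0.00036), Tal1, by 1.40 ± 0.16 (9.92e-05), and Zfpm1, by 1.23 ± 0.21 (0.00162). Gata1 averaged 91.99 CPM in leukemic and 276.4 CPM in non-leukemic libraries, so that Gata2 and Gata1 changed in opposite directions. All 3 factors are also made by red cell precursors, whose markers, such as Hbb-bs (-4.58 ± 0.28, adjusted p = 9.47e-07), Alas2 (-4.31 ± 0.22, 4.08e-07) and Hbb-bt (-4.16 ± 0.28, 1.88e-06), took 0.0558% to 0.133% of counts in leukemic and 1.43% to 1.88% in non-leukemic libraries. All 9 of those markers fell, none was at 0, and the list median was -4.32 on the log2 scale. Their part in the fall of Gata1, Tal1 and Zfpm1 was not tested. Bhlhe40, a factor of activated basophils and T cells, rose by 1.62 ± 0.24 (adjusted p = 0.000506).

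Gata2 and Kit are also made by stem and progenitor cells, and 7 of 16 genes of those cells rose while 2 fell (list median 0.54 on the log2 scale). Hoxa9 rose by 1.45 ± 0.20 (adjusted p = 0.000314) and Flt3 by 1.15 ± 0.19 (0.00124), while Tal1, given above, and Gfi1b (-1.60 ± 0.24, 0.000677) fell. The list took 0.123% to 0.162% of counts in leukemic and 0.0996% to 0.132% in non-leukemic libraries, and no gene of it was at 0. Its part in the change of Gata2 was not tested.

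**Figure D5:**
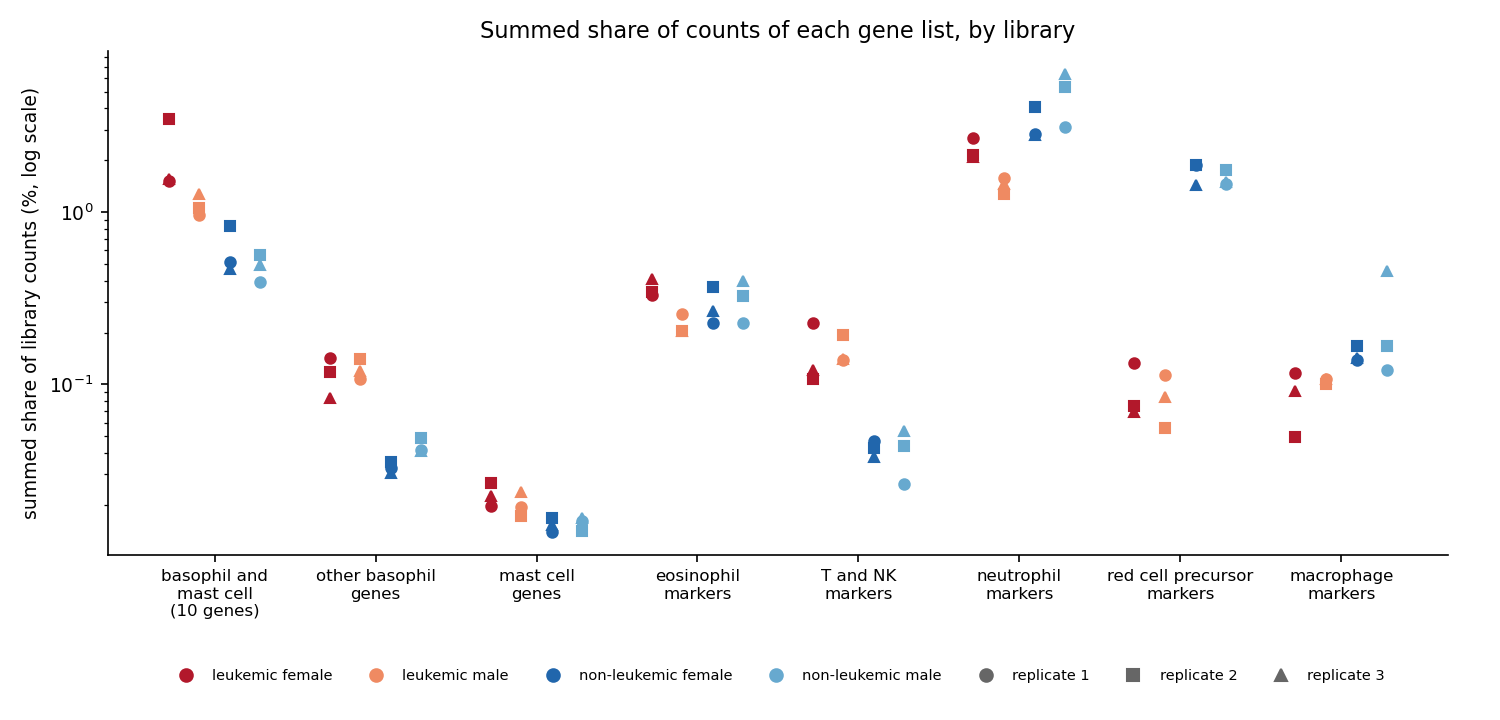
Summed share of library counts in percent (vertical axis, log scale) of the 10 basophil and mast cell genes and of 7 other lists, 1 point per library, with leukemic groups in reds and non-leukemic groups in blues. The 10 genes, the other basophil genes, the mast cell list and the T and NK markers are higher in all leukemic libraries. The red cell precursor, neutrophil and macrophage markers are lower in all of them, and the eosinophil markers overlap. Most genes of the mast cell list were at or near 0. That list lies at 0.0172% to 0.0267% in leukemic and 0.0139% to 0.0167% in non-leukemic libraries and overlaps without Tph1.

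None of the eosinophil markers rose. The 10 eosinophil markers took 0.204% to 0.408% of counts in leukemic and 0.226% to 0.397% in non-leukemic libraries, with 0 that rose, 2 that fell and a list median of -0.15 on the log2 scale. The eosinophil granule genes Prg2 (-0.18 ± 0.22, adjusted p = 0.656) and Epx (0.05 ± 0.24, 0.929), chosen after their values were seen, did not pass, and the chemokine receptor Ccr3, which basophils also carry, fell by 2.21 ± 0.28 (adjusted p = 0.000152). Ear2 fell by 1.15 ± 0.33 (adjusted p = 0.0285), and Siglecf (0.73 ± 0.25, 0.0592) and Ear1 (-0.85 ± 0.30, 0.0699) did not pass. Only 1 eosinophil marker fell without female leukemic replicate 2 or 3, any male leukemic library, female non-leukemic replicate 2 or male non-leukemic replicate 2, and 1 rose without male leukemic replicate 2 or male non-leukemic replicate 3.

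Neutrophil markers took 1.28% to 2.71% of counts in leukemic and 2.79% to 6.37% in non-leukemic libraries. Of 10, 0 rose and 6 fell (list median -1.48 on the log2 scale), among them Ltf by 1.88 ± 0.23 (adjusted p = 0.000158), Camp by 1.85 ± 0.35 (0.00281), Ngp by 1.85 ± 0.35 (0.00296) and S100a9 by 1.75 ± 0.37 (0.0058). The fall was not uniform, since Ctsg (0.77 ± 0.25, adjusted p = 0.0541), Mpo (0.29 ± 0.23, 0.456), Prtn3 (-0.10 ± 0.33, 0.883) and Elane (-0.58 ± 0.34, 0.281) did not pass. In this list 1 marker rose without male leukemic replicate 1, male leukemic replicate 2 or male non-leukemic replicate 3. Of 5 platelet and megakaryocyte markers tested, Gp9 fell by 1.74 ± 0.28 (adjusted p = 0.00108) and Itga2b, which early blood progenitors also carry, rose by 0.72 ± 0.21 (0.0296), with a list median of 0.46. Ppbp (1.11 ± 0.48, adjusted p = 0.131) did not pass. No platelet marker rose without female leukemic replicate 2 or 3, male leukemic replicate 3, any female non-leukemic library, or male non-leukemic replicate 1 or 2, and 2 rose without male leukemic replicate 2. Of the 11 macrophage markers 0 rose and 6 fell (list median -1.12 on the log2 scale), among them Cd163 by 2.31 ± 0.26 (adjusted p = 7.62e-05), Mrc1 by 1.98 ± 0.26 (0.000204), Vcam1 by 1.40 ± 0.24 (0.00167) and Adgre1 by 1.25 ± 0.30 (0.0129). The share taken by macrophage markers was lower in every leukemic library than in any non-leukemic library, and its part in the rise of the basophil and mast cell genes was not tested.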

How the data were processed

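RNA of sorted macrophages was amplified from 1 ng with a SMARTer full-length cDNA kit, per the labels' protocols, a chemistry that marks neither strand nor molecule, so intervals and floors cover counting error only and antisense reads cannot be told apart. The authors deposited raw counts per gene, 1 column per library, without normalization. Of tools, the submitters' processing notes give STAR 2.7.9a, featureCounts and the build GRCm39 among others, without roles or settings. The table held 56832 genes, 27619 of them without a count.

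The 12 libraries were grouped by labelled sex and condition. Genes passing filterByExpr of edgeR over the 4 groups were normalized by edgeR's TMM, a trimmed mean of log ratios, and tested by the robust quasi-likelihood F test of edgeR 4.0.16 in R 4.3.3, two-sided, with Benjamini-Hochberg adjustment over 15758 genes. The main fit had sex as a term. The effects in each sex and their difference were contrasts of 4 group means. SE was the log2 fold change divided by the square root of F. Wilson 95% limits of the 10 genes' summed share lay within 0.665% of its value. Likeness used log2 CPM with a prior count of 2. No library copied another of its group, since chi-square over its degrees of freedom was at least 22.6. Gene lengths came from GENCODE M21 (GRCm38) and promoters from RefSeq (GRCm38.p6), both matched by symbol. The pipeline was tested on simulated data.

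The 10 genes and the 16 lists were chosen with earlier results of these data known. Named genes were the 10, the 4 of each list with the lowest p, any gene that alone of its list passed or failed, the 5 most like Mcpt8 and Kit, and the gate genes; others were chosen after their values were seen. Alternatives were RLE size factors, column totals, DESeq2 1.42.0, other low-count filters, a fit of only the libraries compared, leaving out sex, blocking on replicate number, and fits without each library or without the pair of female leukemic replicate 1 plus male non-leukemic replicate 3. The exact test planned for genes under the filter was not needed. The list gene Ahsp was not analysed here, and some genes that the naming rule selects are not reported here.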

Additional observations from a re-analysis of the deposited data

Results flagged for a closer look

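Each of the 10 genes was tested in the 6 leukemic and the 6 non-leukemic libraries, females and males together. Of these 20 groups of values, 6 held a library far from the others by Dixon's test at the 95% level. By chance the test marks about 1 in 20 independent groups. These groups share libraries, so the 6 cannot be set against that rate. In 4 of the 6 the library was female leukemic replicate 2. It had 19180 CPM of Prss34, against 9472 CPM in the next leukemic library, 8342 CPM of Mcpt8, against 3584 CPM, 3539 CPM of Cpa3, against 1579 CPM, and 689.6 CPM of Hdc, against 413.3 CPM. Without it the log2 fold changes of the 10 genes had a median of 1.18, against 1.40 with it, and the same 7 genes passed.

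Female non-leukemic replicate 2 had 4874 CPM of Prss34, against 2997 CPM in the next non-leukemic library. The other group was Kit, with 129 CPM in female leukemic replicate 1, below the 240.6 CPM of the next leukemic library. That library also had the fewest genes detected, and without it Kit passed the test.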

How the results depend on the processing

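The same 7 of the 10 genes rose under all 20 alternatives of the comparison over both sexes, and none fell. In 6 of them 1 more gene passed: Il4 with column totals, DESeq2, no sex term and without male non-leukemic replicate 2, and Kit without female leukemic replicate 1 and with male non-leukemic replicate 3 left out beside that library. A filter of 5 CPM in 3 libraries left Il4 untested. Over all genes, 1373 rose and 1449 fell, and 2421 rose and 2296 fell without that pair of libraries. With single libraries left out, 998 to 1958 rose and 1025 to 1952 fell. With column totals 59.9% of the calls were higher in leukemic libraries, against 48.7% with TMM, and the median of all genes was 0.068. In males 0 to 5 of the 10 genes rose with single libraries left out and 5 with DESeq2, against 4, and in females 6 to 9 and 9, against 7. With the replicate block 7 of the 10 genes rose, with 1231 genes higher and 1278 lower overall. No pairing by replicate number was seen: of 18 same-numbered pairs, 0 had a correlation of deviations over 0.1, with a range of -0.113 to 0.077. With 3 libraries per group this check cannot exclude a pairing or a shared batch. With no low-count filter 1 eosinophil marker and 1 lipid mediator gene fell, against 2 in each list. By DESeq2, 2 lipid mediator genes, 1 eosinophil marker and 1 neutrophil marker rose and 1 gene of the IL-4 list fell. Il4 had 89 to 227 counts in leukemic and 30 to 71 in non-leukemic libraries, which sets the counting error of its level, and no test of depth was run.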
